A study of Homo sapiens with 6 samples.

Results

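The RAB GTPases are a family of small proteins that direct membrane vesicles inside the cell, and their transcripts were followed here in SK-MES-1 cells given exosomes of lung fibroblasts. A row of the gene table counted as a family member when its symbol was RAB, a number and at most 1 letter from A to F, which gave 62 of 15761 genes and left out regulators and effectors whose names begin with RAB. Of the 62 members, 50 had enough reads to be tested.

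SK-MES-1 is a long-used human cell line labelled as lung squamous carcinoma, with its genotype given as WT. The 3 exosome libraries came from cells kept for 72 h with 20 µg/ml of exosomes (small vesicles released by cells) from lung fibroblasts of idiopathic pulmonary fibrosis, a scarring lung disease. The 3 control libraries came from the same line kept without exosomes for the same time. All 6 are from 1 cell line, and nothing in the labels tells whether libraries of a group came from separately grown cells; p-values therefore cover the spread among these libraries only, which may be technical. The comparison asks how the tumour cells' transcripts differ after contact with the vesicles.

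RAB proteins work as switches. Exchange factors (GEFs) load them with GTP, which turns them on at 1 membrane, where they bind effectors that move, tether or fuse vesicles; GTPase-activating proteins (GAPs) turn them off, and a dissociation inhibitor (GDI) carries the prenylated, inactive form through the cytosol. Each RAB marks its own compartments. RAB5 proteins belong to early endosomes, RAB7A to late endosomes, RAB11 proteins to recycling endosomes and RAB1 and RAB6 proteins to the Golgi, while RAB27A and RAB27B are known from human cells for docking the endosomes whose fusion with the surface releases exosomes.

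The promoters of 5 members are shown because the results turn on them: RAB27B, RAB6A and RAB32 were lower in every fit that was run, RAB13 was the 1 member higher both before and after the GC and length correction described below, and RAB27A is the closest relative of RAB27B. They were chosen after their values were seen. Each runs 5′ to 3′ from 250 bases before to 50 bases after the most upstream RefSeq start in the table (GRCh38.p14), with capitals on GC boxes (GGGCGG on either strand).
RAB27B, chr18:54717607-54717906, plus strand: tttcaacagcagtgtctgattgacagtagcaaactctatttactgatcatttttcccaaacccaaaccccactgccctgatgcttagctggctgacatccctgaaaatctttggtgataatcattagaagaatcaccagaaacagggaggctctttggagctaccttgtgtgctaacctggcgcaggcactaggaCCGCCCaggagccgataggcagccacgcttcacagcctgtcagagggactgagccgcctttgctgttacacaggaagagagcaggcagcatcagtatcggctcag
RAB27A, chr15:55319074-55319373, minus strand: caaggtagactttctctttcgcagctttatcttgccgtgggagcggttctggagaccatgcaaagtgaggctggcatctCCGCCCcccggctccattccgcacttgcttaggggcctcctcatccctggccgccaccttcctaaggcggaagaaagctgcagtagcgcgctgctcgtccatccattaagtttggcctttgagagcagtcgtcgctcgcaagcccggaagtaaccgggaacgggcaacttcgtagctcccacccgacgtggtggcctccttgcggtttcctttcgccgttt
RAB6A, chr11:73761025-73761324, minus strand: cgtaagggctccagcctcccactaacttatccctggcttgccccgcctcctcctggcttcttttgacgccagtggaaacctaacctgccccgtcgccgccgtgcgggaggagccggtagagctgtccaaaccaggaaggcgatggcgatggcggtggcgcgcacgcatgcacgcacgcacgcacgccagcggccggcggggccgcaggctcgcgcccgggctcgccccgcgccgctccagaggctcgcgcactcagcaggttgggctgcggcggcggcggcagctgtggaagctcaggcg
RAB32, chr6:146543583-146543882, plus strand: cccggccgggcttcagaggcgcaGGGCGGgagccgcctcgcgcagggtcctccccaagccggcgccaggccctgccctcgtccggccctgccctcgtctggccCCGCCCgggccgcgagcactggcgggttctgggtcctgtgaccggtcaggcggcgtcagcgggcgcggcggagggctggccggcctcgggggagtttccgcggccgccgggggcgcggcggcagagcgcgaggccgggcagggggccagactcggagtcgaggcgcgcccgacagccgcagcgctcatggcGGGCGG
RAB13, chr1:153986290-153986589, minus strand: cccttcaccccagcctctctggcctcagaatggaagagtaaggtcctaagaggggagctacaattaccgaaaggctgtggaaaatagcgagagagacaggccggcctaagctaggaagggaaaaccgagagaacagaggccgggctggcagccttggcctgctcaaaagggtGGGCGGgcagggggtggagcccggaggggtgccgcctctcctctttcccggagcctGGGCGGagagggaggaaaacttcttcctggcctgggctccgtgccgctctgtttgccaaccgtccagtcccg
The GC box was in 34 of the 41 tested members searched (82.9%), against 45.0% of all 35116 promoters of this length. RAB2A, called lower, was left out of this search. Also not searched were RAB1A, RAB12 and RAB33B, called lower, and RAB20 and RAB26, called higher. The same holds for RAB15, RAB36 and RAB37, which were not called. The members are tested genes with 1 start each, while the 35116 hold every start listed, of genes tested or not. These sets are thus unlike, here and for the motifs below, and shares over all tested genes were not computed. The RAB6A window had no GC box, and the RAB27B and RAB27A windows had 1 each. The other motifs searched on both strands were CCAAT (26.8% of members, 34.6% of all promoters), CACGTG (14.6% and 7.3%), TGACGTCA (0 members, 1.8%) and TGANTCA (7.3% and 7.7%). Matches of different motifs were allowed to overlap. Among the searched members lower with exosomes 11 of 13 held a GC box, and among the searched members higher with exosomes 8 of 9 did. A match is a description of the letters and not of a bound site.

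Library totals were 11346639 to 13334508 counts, with 14294 to 14540 genes detected, and the family took 0.304% to 0.308% of the counts in exosome libraries and 0.318% to 0.338% in control libraries. Of 10 epithelial and squamous markers, 9 had values, and their summed level was 2680 to 2827 CPM in exosome libraries and 3301 to 3643 CPM in control libraries (CPM are counts scaled to the library total and its TMM factor, here and below). KRT8 (1830 to 1970 CPM with exosomes, 2280 to 2490 CPM in control) made up most of it, while the basal and squamous keratins KRT5, KRT6A and KRT14 stayed at or below 0.444 CPM in every library. KRT17, another keratin of basal and squamous cells, had 0.961 to 1.19 CPM with exosomes and 2.92 to 4.45 CPM in control, and fell (log2 fold change -1.71, edgeR, adjusted p = 9.55e-05; -2.11 after the GC and length correction described below). KRT8 (-0.35, edgeR, adjusted p = 0.00054) and KRT18 (-0.39, adjusted p = 0.000174) also fell, at -0.65 and -0.72 after that correction. EPCAM passed only after it (-0.31), and TP63 and SOX2 in neither fit. TP63, a marker of basal and squamous cells, had 2.06 to 2.37 CPM with exosomes and 1.06 to 1.97 CPM in control, and SOX2 had 3.33 to 7.12 CPM with exosomes and 3.62 to 4.90 CPM in control. The squamous markers were thus low or near 0 in libraries labelled as squamous carcinoma. Fibroblast markers, 6 of 10 with values, summed to 7.76 to 9.04 CPM in exosome libraries and 11.4 to 12.1 CPM in control libraries, mostly PDGFRB, with PDGFRA and THY1 at 0 or near it. COL6A3, at 1.11 to 1.61 CPM with exosomes and 3.02 to 4.02 CPM in control, fell (-1.30, edgeR, adjusted p = 0.000813, and -1.16 after the correction). PDGFRB passed as lower only after the correction (-0.43). In bulk RNA, fewer cells of a type and less RNA per cell cannot be told apart. The part of these marker differences in the results below was not tested.

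The family was broadly present in these cells. By the authors' FPKM, which is per kilobase and so compares genes, 45 of the 62 members had a mean of at least 1. Averaged over all 6 libraries the highest level was that of RAB10, which serves Golgi exit and delivery to the surface, with 90.5 ± 4.63 FPKM in exosome libraries and 114 ± 8.28 FPKM in control libraries (SD, n = 3 each here and below). RAB7A came next in that average, with 88.4 ± 0.799 FPKM with exosomes and 83.1 ± 2.95 FPKM in control.

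Within the groups the order differed: RAB1B was highest with exosomes, and in control RAB31 was above RAB7A. RAB1B, of transport between the endoplasmic reticulum (ER) and the Golgi, had 96.8 ± 9.92 FPKM with exosomes and 73.2 ± 5.77 FPKM in control. RAB31, an endosomal RAB, had 79.0 ± 5.67 FPKM with exosomes and 90.8 ± 7.06 FPKM in control. RAB34, known for cilium formation and lysosome position, had 63.6 ± 2.09 FPKM with exosomes and 46.6 ± 1.70 FPKM in control. Within the exosome group the ranges of mean ± SD of RAB1B, RAB10 and RAB7A overlapped, and in control libraries those of RAB31 and RAB7A did. The same 5 members led when TMM-scaled CPM was divided by transcript length.

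**Figure D1:**
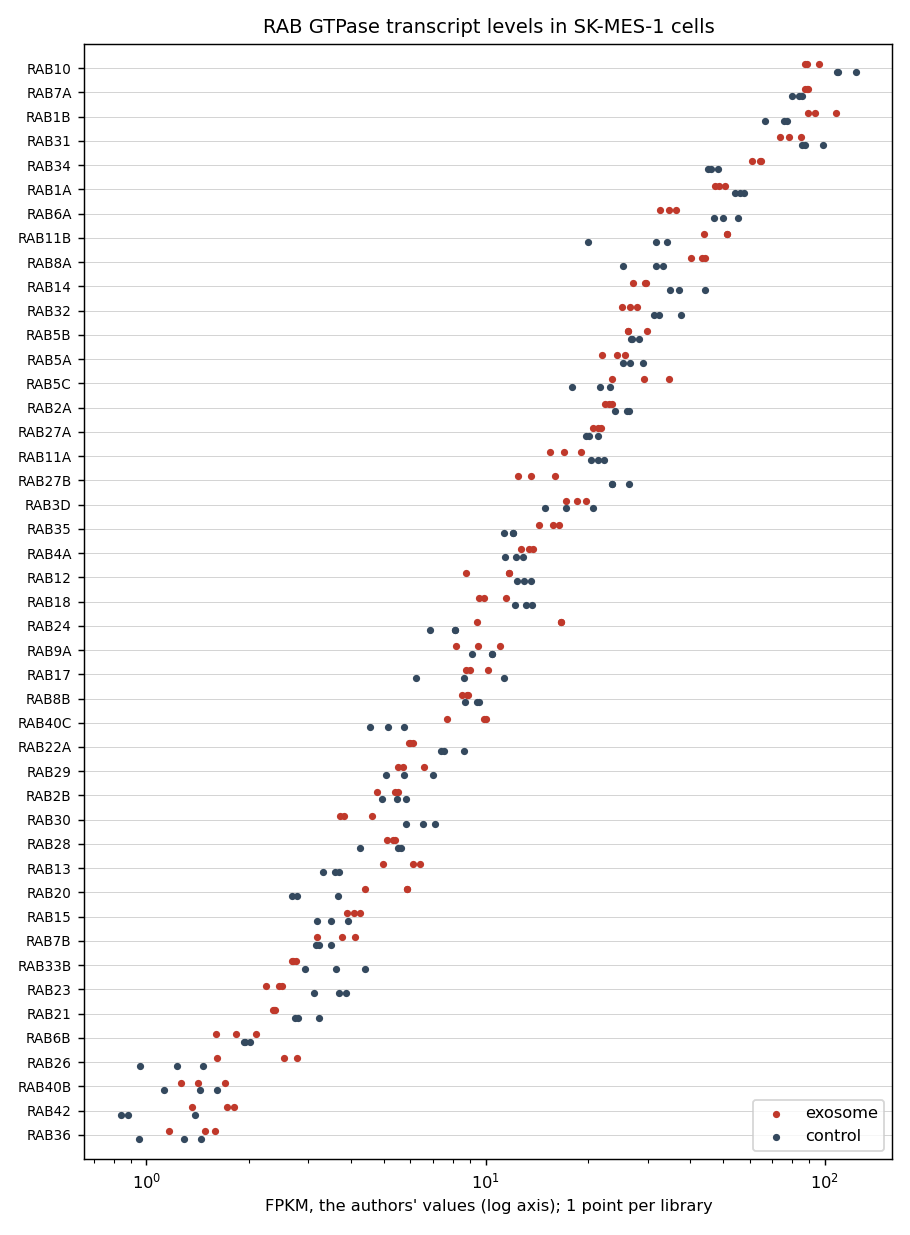
Authors' FPKM (log axis) of the 45 RAB genes with a mean of at least 1 FPKM, 1 point per library, exosome libraries in red above control libraries in dark blue, ordered by mean. RAB10, RAB7A, RAB1B and RAB31 lie highest, and RAB27B (14.0 FPKM with exosomes, 24.6 FPKM in control) has clearly separate groups.

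The 12 members that were not tested were RAB4B, RAB6C, RAB6D, RAB9B, RAB19, RAB25, RAB33A, RAB38, RAB39A, RAB39B, RAB41 and RAB44. Each had at most 42 reads over the 6 libraries, whereas the lowest tested member, RAB3B, had 90. RAB25, an epithelial RAB of recycling endosomes, had 1 read in all. RAB6C and RAB6D are near copies of RAB6A that can take or lose its reads.

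Set against control, 28 of the 50 tested members (56%) passed the edgeR quasi-likelihood test at a Benjamini-Hochberg adjusted p under 0.05, 11 higher and 17 lower with exosomes. Over all 12449 genes tested the share was 51.7%, with 25.6% higher and 26.1% lower, so the family changed about as often as other genes. The changes were moderate: no member reached 2-fold, and the median absolute log2 fold change was 0.34 for members and 0.32 for all genes. Exosome and control libraries did not overlap for 56% of members (10 higher, 18 lower), against 59.3% of all genes (29.2% higher, 30.2% lower). The authors' deposited table also has 11 members higher and 17 lower at an adjusted p under 0.05.

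The calls went along with the base composition of the transcripts. In these libraries fold changes rose with the GC content of the gene's longest transcript, and the correlation was 0.82 over the 50 members (Spearman's rho) and 0.62 over all genes, as a description across genes that share the same 6 libraries. After a per-library trend on GC content and transcript length was removed, 11 members passed (22%, 4 higher and 7 lower), against 35.3% of all genes (18% higher, 17.2% lower). Of the 28 calls 8 stayed with the same direction: RAB13 higher, and RAB27B, RAB6A, RAB32, RAB30, RAB14, RAB10 and RAB12 lower. RAB27A, RAB4A and RAB8B passed, as higher, after the correction and not before it. When each library was left out in turn, the trend-removed calls of RAB27B, RAB6A, RAB32 and RAB27A held each time. Those of RAB10, RAB12, RAB13, RAB14, RAB30, RAB4A and RAB8B were each lost without at least 2 of the 6 libraries, with adjusted p (edgeR) of 0.0521 to 0.190. Values after this correction are called trend-removed below, and every fold change is a log2 ratio of exosome over control with its SE.

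**Figure D2:**
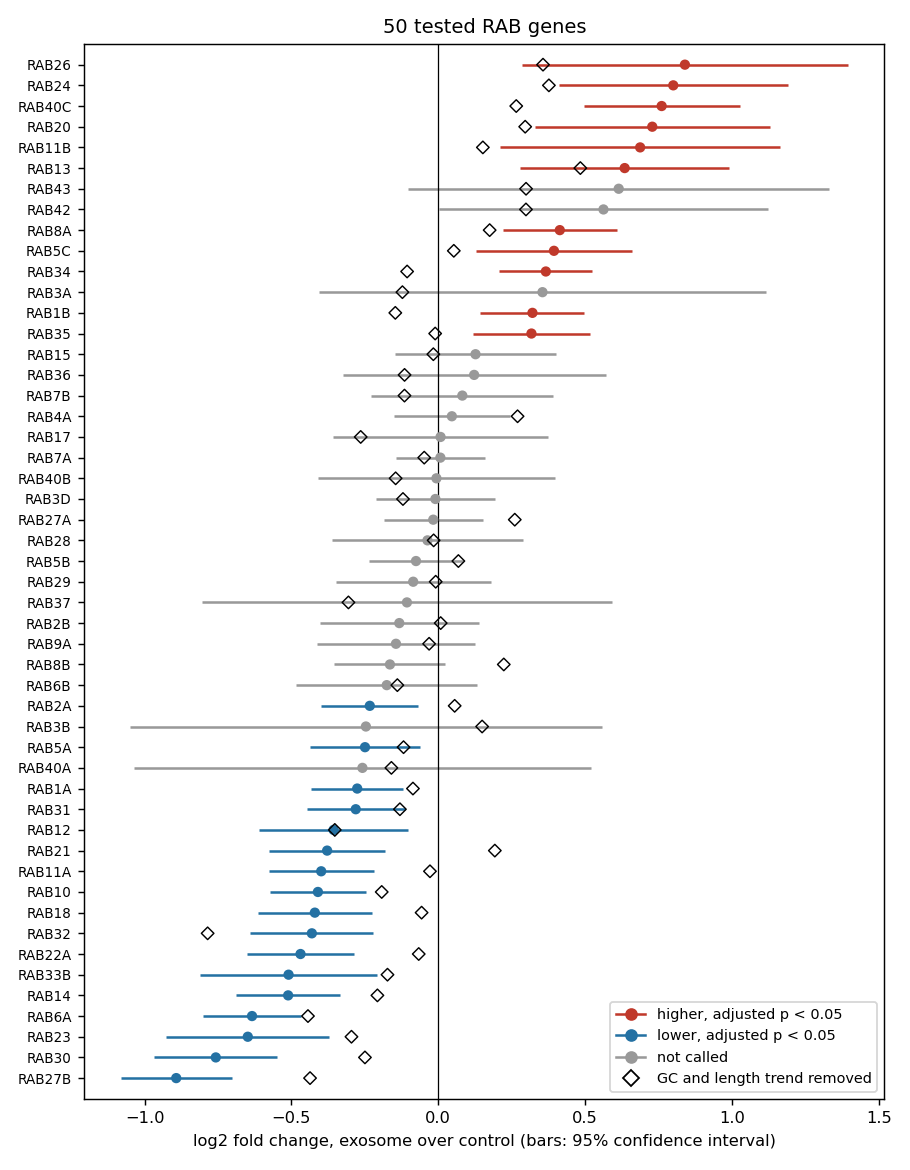
Log2 fold change (exosome over control) of the 50 tested RAB genes. Filled points and bars are estimates and 95% confidence intervals from the counts as deposited, red higher, blue lower and grey not called; open diamonds are the trend-removed estimates. RAB27B lies lowest at -0.89, and most diamonds lie nearer 0 than their points, RAB32 being an exception at -0.79.

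Among RABs of regulated secretion and exosome release, 1 of 7 tested members rose (RAB26) and 1 fell (RAB27B), shares of 14.3% each beside 25.6% and 26.1% of all genes. Trend-removed, 1 rose (RAB27A) and 1 fell (RAB27B), again 14.3% each, beside 18% and 17.2% of all genes. RAB27B, on chromosome 18 from 54717860 to 54895516 (GRCh38), had 87.3, 95.1 and 115 CPM in exosome libraries 1 to 3 and 179, 177 and 196 CPM in control libraries 1 to 3. The highest exosome library lay far below the lowest control library. Its log2 fold change was -0.89 ± 0.0913 (edgeR quasi-likelihood test, adjusted p = 1.48e-07), a level 1.86-fold lower. Trend-removed, it was -0.44 (adjusted p = 1.34e-05).

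RAB27A, on chromosome 15 from 55202966 to 55319113, did not pass from the counts as deposited. It had 74.1, 76.5 and 79.8 CPM in exosome libraries against 75.8, 76.7 and 80.5 CPM in control libraries, and the groups overlapped. The log2 fold change was -0.02, with a 95% interval of -0.18 to 0.15 (adjusted p = 0.878). Trend-removed, RAB27A was higher at 0.26 (edgeR, adjusted p = 0.00354), with 86.3, 84.3 and 83.1 CPM in exosome libraries against 69.7, 69.7 and 72.3 CPM in control libraries. Its annotated span overlaps PIGB on the other strand and PIGBOS1 on the same strand, so reads in the shared stretches are uncertain.

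RAB26, which acts on secretory granules, was the member that rose most, on few reads. It had 4.55, 4.95 and 2.96 CPM in exosome libraries against 2.37, 2.82 and 1.81 CPM in control libraries. The lowest exosome library stood just above the highest control library. Its log2 fold change of 0.84 ± 0.268 (edgeR, adjusted p = 0.0120) did not pass without exosome library 1 (adjusted p = 0.0511) or 2 (adjusted p = 0.0743), nor trend-removed (0.36, adjusted p = 0.282). RAB3D, the most abundant RAB3 of exocytosis here, was at 18.6 ± 1.24 FPKM with exosomes and 17.6 ± 2.95 FPKM in control. Neither it nor RAB3A, RAB3B or RAB37 passed.

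Among RABs of the ER and Golgi, 6 of 11 tested members fell (54.5%) and 1 rose (9.09%), beside 26.1% and 25.6% of all genes. With the trend removed, 2 fell (18.2%) and 0 rose, beside 17.2% and 18% of all genes. RAB6A, which drives vesicles out of and back through the Golgi, had 112, 118 and 128 CPM in exosome libraries and 184, 172 and 200 CPM in control libraries. All exosome libraries were lower. The gene lies on chromosome 11 from 73675638 to 73761137, and its log2 fold change was -0.63 ± 0.0807 (edgeR, adjusted p = 2.30e-06), or -0.44 trend-removed (adjusted p = 1.63e-05). Reads given to its near copy RAB6C reached at most 1.02 CPM, in control library 3.

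RAB30, a Golgi RAB, fell as well. It had 40.8, 39.8 and 50.6 CPM with exosomes, against 67.2, 74.7 and 79.9 CPM in control, without overlap. The log2 fold change was -0.76 ± 0.101 (edgeR, adjusted p = 3.95e-06), and trend-removed it was -0.25 (adjusted p = 0.0133). RAB33B, which links the Golgi to autophagy, had 11.9, 11.8 and 12.4 CPM with exosomes, against 13.9, 17.1 and 20.5 CPM in control. Control library 3 was the highest, and without it the RAB33B log2 fold change of -0.51 became -0.34 and did not pass (edgeR, adjusted p = 0.0552); trend-removed it was -0.17 (adjusted p = 0.332). The other members called lower were RAB18 (log2 fold change -0.42), known from lipid droplets and the ER, and RAB1A and RAB2A of ER to Golgi transport (-0.28 and -0.23), and none of these 3 passed trend-removed, where RAB2A turned to 0.06. The RAB2A call was also lost without exosome library 2 (adjusted p = 0.0971) or control library 1 (adjusted p = 0.0905). RAB6B, RAB2B, RAB36 and RAB43 did not pass.

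Among RABs of early endosomes and endocytosis 5 of 9 tested members fell (55.6%) and 2 rose (22.2%), beside 26.1% and 25.6% of all genes. With the trend removed, 1 fell and 1 rose (11.1% each), beside 17.2% and 18% of all genes. RAB14, which moves cargo between endosomes and the Golgi, had 109, 118 and 121 CPM with exosomes, against 151, 159 and 187 CPM in control. The groups were apart, the log2 fold change was -0.51 ± 0.0857 (edgeR, adjusted p = 4.66e-05), and trend-removed it was -0.21 (adjusted p = 0.0186). RAB14 shares part of its span with GSN. RAB31 had 289, 306 and 341 CPM with exosomes, against 369, 359 and 408 CPM in control. Its log2 fold change was -0.28 ± 0.0809 (edgeR, adjusted p = 0.00606), and trend-removed it was -0.13 (adjusted p = 0.107).

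RAB22A and RAB21, which sort endocytosed receptors and integrins, were also called lower (log2 fold changes -0.47 and -0.38); trend-removed, RAB22A was at -0.07 and RAB21 at 0.19, and neither passed. RAB5A, the classic fusion factor of early endosomes, had 54.0, 59.8 and 64.3 CPM with exosomes, against 66.8, 76.2 and 68.9 CPM in control. The groups came close, and the log2 fold change of -0.25 ± 0.0908 (edgeR, adjusted p = 0.0254) did not pass without exosome library 1 (adjusted p = 0.137), exosome library 2 (adjusted p = 0.0704) or control library 2 (adjusted p = 0.173). RAB20, an endosomal and phagosomal RAB, had 8.59, 8.57 and 6.59 CPM with exosomes, against 4.25, 4.36 and 5.67 CPM in control. It was higher in every exosome library, at a log2 fold change of 0.73 ± 0.193 (edgeR, adjusted p = 0.00327), and at 0.30 trend-removed (adjusted p = 0.231). RAB4A, of fast recycling from early endosomes, was at 0.05 from the counts as deposited (adjusted p = 0.711) and at 0.27 trend-removed (edgeR, adjusted p = 0.0192).

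RABs of recycling and of delivery to the cell surface were split, with 4 of 10 tested members higher and 3 lower. These are 40% and 30%, beside 25.6% and 26.1% of all genes. With the trend removed, 2 were higher and 2 lower (20% each), beside 18% and 17.2% of all genes. RAB10 had 303, 297 and 335 CPM with exosomes, against 401, 396 and 444 CPM in control. Its groups did not overlap, the log2 fold change was -0.41 ± 0.0782 (edgeR, adjusted p = 0.000177), and trend-removed it was -0.19 (adjusted p = 0.0160). RAB12, which sends receptors from recycling endosomes to lysosomes, had a log2 fold change of -0.36 ± 0.122 (edgeR, adjusted p = 0.0181) and kept its size trend-removed, at -0.35 (adjusted p = 0.0226). Neither call held without exosome library 2 (-0.22, adjusted p = 0.177, and -0.205 trend-removed, adjusted p = 0.190) or control library 1 (-0.31, adjusted p = 0.0714, and -0.31 trend-removed, adjusted p = 0.0678).

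RAB13, which delivers proteins to cell junctions, went the other way. It had 9.39, 9.83 and 7.85 CPM with exosomes, against 6.13, 5.45 and 5.83 CPM in control, and every exosome library was above every control library. The log2 fold change was 0.63 ± 0.172 (edgeR, adjusted p = 0.00391), and trend-removed it was 0.48 (adjusted p = 0.0228). The trend-removed call did not hold without exosome library 1 (adjusted p = 0.0735), exosome library 2 (adjusted p = 0.0975) or control library 2 (adjusted p = 0.0777). The gene lies on chromosome 1 from 153981617 to 153986358, overlapping the coding gene AL358472.6 on the same strand, so that reads may be split between them. RAB8A, of polarised transport and cilia, rose by a log2 fold change of 0.41 ± 0.0932 (edgeR, adjusted p = 0.000848), but was at 0.17 trend-removed (adjusted p = 0.0790). RAB35, a RAB of recycling endosomes with a part in exosome release, had 46.8, 40.9 and 45.9 CPM with exosomes, against 36.9, 36.4 and 33.9 CPM in control. It was called higher (log2 fold change 0.32 ± 0.0968, edgeR, adjusted p = 0.00897) and sat at -0.01 trend-removed (adjusted p = 0.936).

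Among late endosomal, lysosomal and autophagy RABs 2 of 8 tested members rose (25%) and 1 fell (12.5%), beside 25.6% and 26.1% of all genes. With the trend removed, 0 rose and 1 fell (12.5%), beside 18% and 17.2% of all genes. RAB32, known from lysosome-related organelles and mitochondria, had 33.0, 29.5 and 32.0 CPM with exosomes, against 39.6, 40.8 and 46.8 CPM in control. Its groups were apart and its log2 fold change was -0.43 ± 0.101 (edgeR, adjusted p = 0.00123). Unlike the other members that stayed lower, RAB32 lay further down once the trend was removed, at -0.79 (adjusted p = 2.61e-05); at 53.8% its transcript had the highest GC content of the 17 lower members. It lies on chromosome 6 from 146543693 to 146554965 and overlaps no other annotated gene.

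RAB7A, the main RAB of late endosomes, had 193, 189 and 196 CPM with exosomes, against 186, 195 and 195 CPM in control. The groups overlapped, and the log2 fold change of 0.01 had a 95% interval of -0.14 to 0.16 (edgeR, adjusted p = 0.943). RAB24, an autophagy RAB, had 22.9, 22.8 and 13.2 CPM with exosomes, against 12, 11.9 and 9.93 CPM in control. Exosome library 3 was much nearer to control than the other 2, the log2 fold change was 0.80 ± 0.184 (edgeR, adjusted p = 0.00181), and trend-removed it was 0.38, at the edge of the threshold (adjusted p = 0.05003). RAB24 overlaps MXD3. RAB34 had 129, 129 and 125 CPM with exosomes, against 104, 97.9 and 94.9 CPM in control. Its log2 fold change of 0.37 ± 0.0765 (edgeR, adjusted p = 0.000426) turned to -0.11 trend-removed (adjusted p = 0.230).

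Of 5 tested members with roles in the cilium, in ubiquitin ligases or elsewhere, 1 rose and 1 fell, and trend-removed 0 passed. The shares as deposited were 20% each, beside 25.6% and 26.1% of all genes, and 35.3% of all genes passed trend-removed. RAB40C, a RAB that builds a ubiquitin ligase, had 28.9, 28.5 and 22.7 CPM with exosomes, against 15.9, 17.6 and 13.9 CPM in control. It was higher in all exosome libraries (log2 fold change 0.76 ± 0.128, edgeR, adjusted p = 5.05e-05), and trend-removed it was at 0.27 (adjusted p = 0.0548); WFIKKN1 overlaps it. RAB23, known in mice as a brake on Hedgehog signalling, had 11.7, 10.7 and 12.2 CPM with exosomes, against 16, 18.8 and 19.5 CPM in control. Its groups were apart at a log2 fold change of -0.65 ± 0.134 (edgeR, adjusted p = 0.000391), with -0.30 trend-removed (adjusted p = 0.0621).

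**Figure D3:**
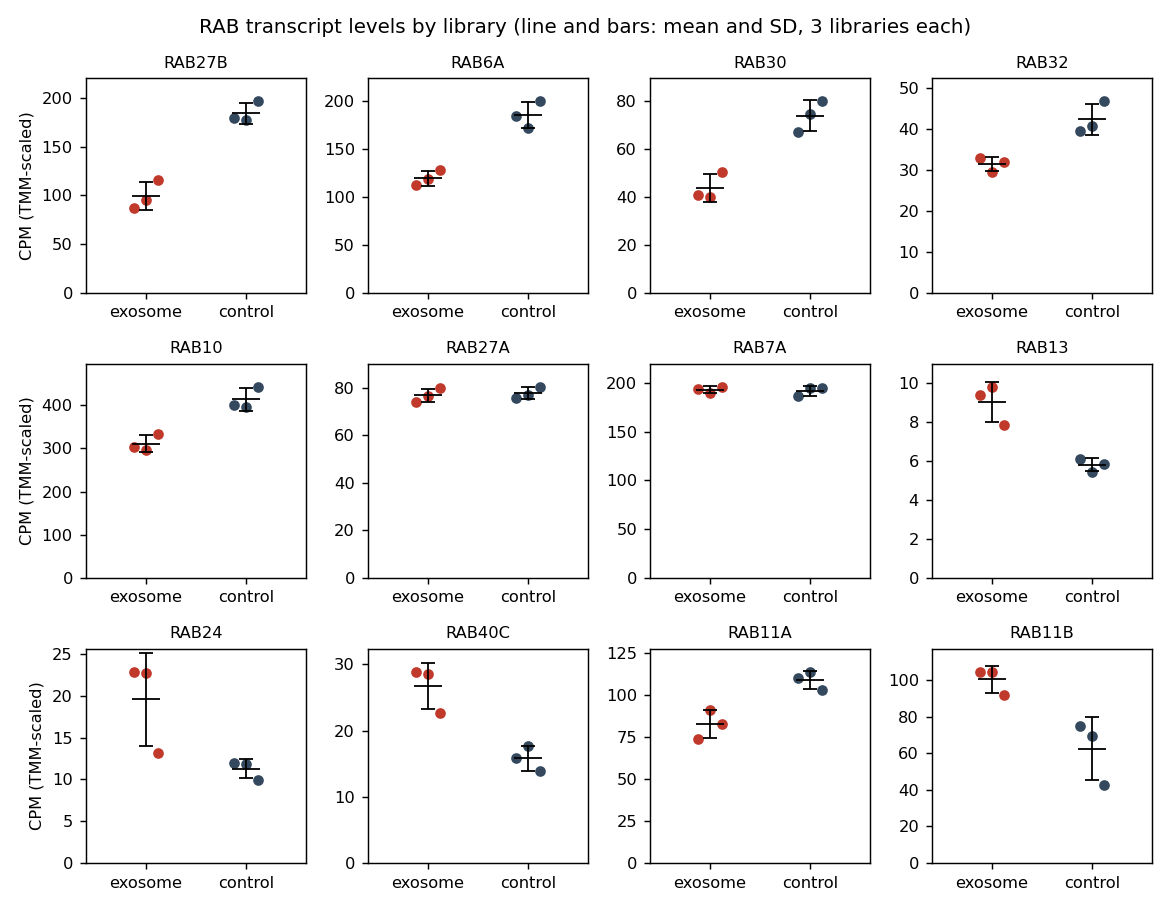
TMM-scaled CPM of 12 RAB genes in each library, exosome libraries in red left of control libraries in dark blue, with the mean and SD of 3 libraries; the genes were chosen after their values were seen. RAB27B, RAB6A, RAB30, RAB32 and RAB10 are lower in every exosome library, RAB27A and RAB7A overlap, and RAB13, RAB24, RAB40C and RAB11B are higher.

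Some close relatives differed in their calls. Of the 16 pairs of tested members that differ only in the last letter of the symbol, 3 were called in opposite directions. They were RAB11A lower and RAB11B higher, RAB1A lower and RAB1B higher, and RAB5A lower and RAB5C higher. Among all tested members 22% were called higher and 34% lower, and the share of opposite calls among pairs of other members was not computed. Trend-removed, none of these 3 pairs had a member that passed, and the 1 pair called in opposite directions was RAB27B (lower) and RAB27A (higher). The ratio of read counts between relatives within a library needs no scaling between libraries, but the GC and length trend is not removed from it. It is given below as a description, with no test.

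RAB11A, the general RAB of recycling endosomes, had 74.0, 91.0 and 82.7 CPM with exosomes, against 110, 114 and 103 CPM in control. RAB11B had 105, 105 and 92.0 CPM with exosomes, against 75.3, 69.3 and 42.9 CPM in control. Both genes had separate groups, with 1.42, 1.15 and 1.11 RAB11B reads per RAB11A read in exosome libraries and 0.686, 0.609 and 0.417 in control libraries; such ratios are of reads and not per length. RAB11A had a log2 fold change of -0.40 ± 0.0863 (edgeR, adjusted p = 0.000595) and RAB11B of 0.69 ± 0.200 (adjusted p = 0.0255). The RAB11B call was lost without exosome library 1, 2 or 3 (adjusted p = 0.131, 0.0803 and 0.0679). Trend-removed, RAB11A was at -0.03 and RAB11B at 0.15, and neither passed; the RAB11A transcript has 37.2% GC and that of RAB11B 63.5%. RAB11A shares part of its span with DENND4A, and RAB11B with an antisense RNA.

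RAB1A had 112, 115 and 123 CPM with exosomes, against 138, 146 and 140 CPM in control. RAB1B had 209, 180 and 177 CPM with exosomes, against 158, 160 and 136 CPM in control. Both pairs of groups were apart, and there were 1.87, 1.57 and 1.44 RAB1B reads per RAB1A read in exosome libraries and 1.15, 1.10 and 0.970 in control libraries. RAB1A had a log2 fold change of -0.28 ± 0.0757 (edgeR, adjusted p = 0.00425), and RAB1B of 0.32 ± 0.0855 (adjusted p = 0.00342). Trend-removed, RAB1B turned to -0.15 (adjusted p = 0.0625) and RAB1A was at -0.09, with 61.1% GC in RAB1B and 38.3% in RAB1A.

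RAB5C had 64.1, 54.0 and 44.5 CPM with exosomes, against 43.2, 45.8 and 35.1 CPM in control, and these groups overlapped. Its log2 fold change of 0.39 ± 0.126 (edgeR, adjusted p = 0.0153) did not pass without exosome library 1 (adjusted p = 0.0973), and trend-removed it was 0.05. RAB5B, the third early endosomal relative, was at -0.08 (adjusted p = 0.429). RAB5C reads per RAB5A read were 1.19, 0.904 and 0.692 in exosome libraries and 0.646, 0.601 and 0.509 in control libraries. The RAB5C transcript has 55.8% GC and that of RAB5A 42%, and RAB5A was at -0.12 trend-removed.

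RAB27B and RAB27A differ little in GC content, at 35.9% and 38.2%, though their transcripts differ in length, at 7281 and 3459 bases. There were 1.18, 1.24 and 1.45 RAB27B reads per RAB27A read in exosome libraries and 2.36, 2.31 and 2.44 in control libraries, without overlap. For RAB8B and RAB8A the ratio was 0.343, 0.347 and 0.385 in exosome libraries and 0.478, 0.494 and 0.659 in control libraries, and RAB8B alone was at -0.16 (edgeR, adjusted p = 0.138) and trend-removed at 0.22 (adjusted p = 0.0301). The RAB8B transcript has 36.2% GC and that of RAB8A 54.1%, and RAB8A was at 0.17 trend-removed. For RAB7B and RAB7A the groups overlapped, at 0.051, 0.062 and 0.067 in exosome libraries and 0.058, 0.060 and 0.053 in control libraries.

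**Figure D4:**
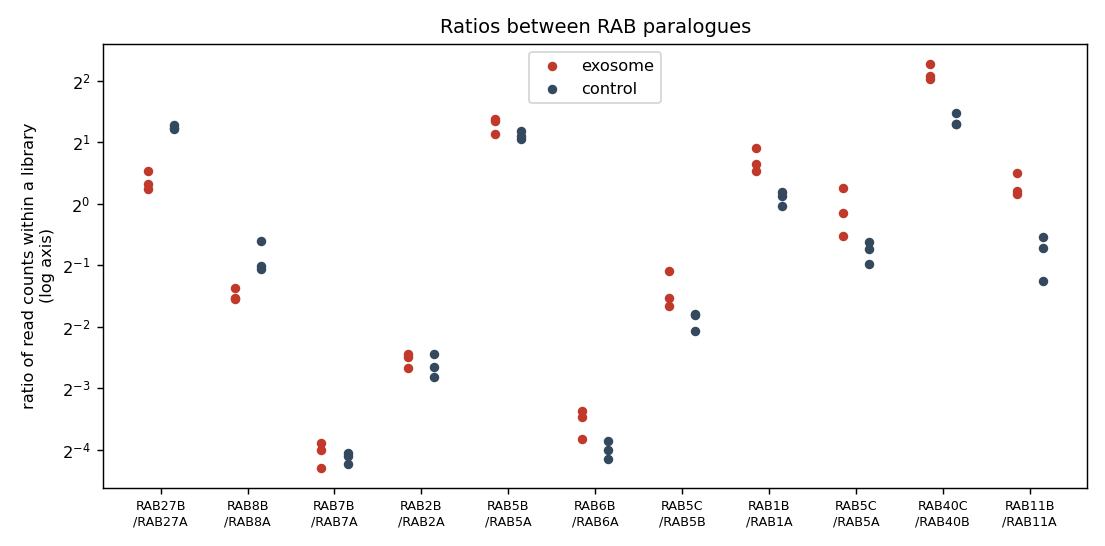
Read counts of 1 RAB gene divided by those of its relative in the same library (log axis), for the 11 pairs whose genes each had at least 200 reads, exosome libraries in red left of control libraries in dark blue. RAB27B to RAB27A is lower with exosomes, RAB11B to RAB11A, RAB1B to RAB1A and RAB40C to RAB40B are higher, and RAB7B to RAB7A overlaps.

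GC content followed the calls across the whole family. The 11 higher members had transcripts of 49.8% to 64.4% GC with a median of 58.4%, the 22 members not called a median of 49%, and the 17 lower members 35.9% to 53.8% with a median of 38.8%. RAB13, at 49.8%, had the lowest GC content of the higher members, and RAB32, at 53.8%, the highest of the lower members, and both also passed trend-removed. Transcript length ran against the fold change (Spearman's rho -0.59 over members, -0.39 over all genes). The slope of log2 CPM on GC, per 10 percentage points, was 0.236, 0.165 and 0.0637 in exosome libraries 1 to 3 and -0.117, -0.138 and -0.21 in control libraries 1 to 3, without overlap. The slope differs between the groups in the same way as the exosomes do, so its part in the fold changes and that of the exosomes cannot be told apart, and an effect of exosomes that followed GC content would be removed with it. Trend-removed, rho with GC was 0.23 over members and 0.03 over all genes.

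**Figure D5:**
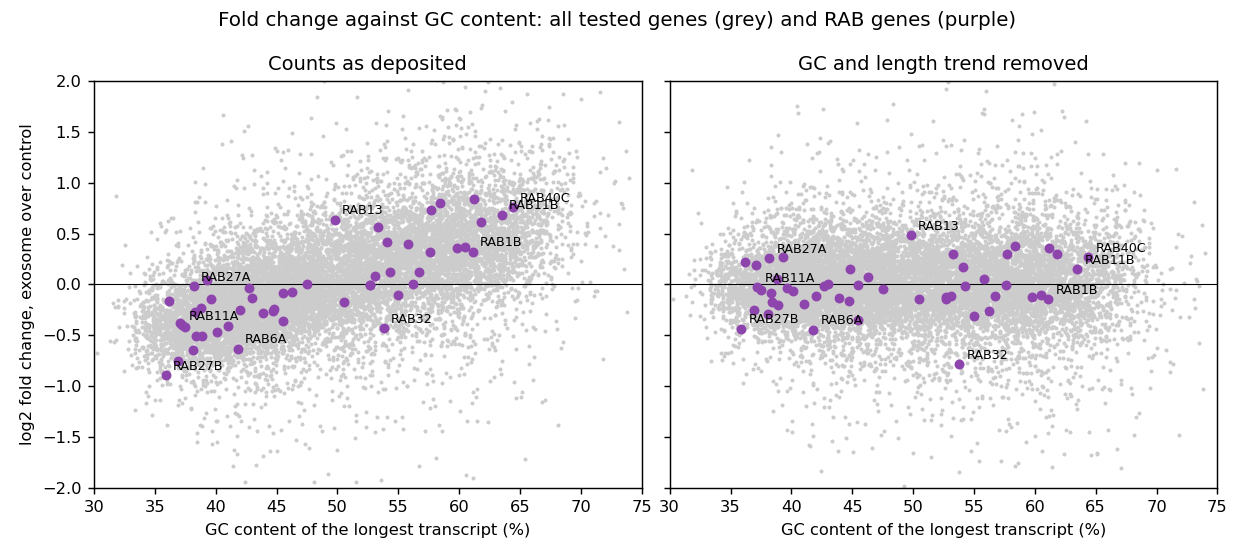
Log2 fold change (exosome over control) against the GC content of the longest transcript for all tested genes (grey) and the 50 RAB genes (purple), from the counts as deposited (left) and with the GC and length trend removed (right). On the left RAB27B (35.9% GC) and RAB40C (64.4% GC) lie at opposite ends of the trend; on the right RAB32 lies farthest from 0 among RAB genes. The axis leaves out 31 genes on the left and 28 on the right beyond a log2 change of 2, none of them RAB genes.

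The proteins that load, switch and read RABs were taken from 5 lists of regulators and effectors, with 134 of 140 genes tested. Of these 23 rose and 46 fell (51.5%, beside 51.7% of all genes), with 17.2% higher and 34.3% lower, against 25.6% and 26.1% of all genes. Trend-removed, 14 rose and 37 fell (38.1%, beside 35.3% of all genes). The median log2 fold change was -0.12, and -0.10 trend-removed, against -0.0042 over all genes from the counts as deposited, which describes the lists and was not tested.

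Among prenylation and escort genes, 2 of 6 rose (33.3%) and 3 fell (50%), beside 25.6% and 26.1% of all genes. With the trend removed, 2 rose (33.3%) and 1 fell (16.7%), beside 18% and 17.2% of all genes. RABGGTB, the catalytic subunit that attaches the lipid anchor, had 63.6 ± 4.45 CPM with exosomes and 51.4 ± 2.28 CPM in control (log2 fold change 0.31, edgeR, adjusted p = 0.00637; trend-removed 0.62). GDI2, a dissociation inhibitor, had 234 ± 17.4 CPM with exosomes and 324 ± 13.1 CPM in control (-0.47), and also passed trend-removed (-0.34). CHML, a RAB escort protein, had 64.1 ± 6.10 CPM with exosomes and 96.3 ± 9.49 CPM in control (-0.59), and did not pass trend-removed (adjusted p = 0.143).

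Of 48 genes listed as exchange factors 10 rose (20.8%) and 16 fell (33.3%), beside 25.6% and 26.1% of all genes. With the trend removed, 6 rose (12.5%) and 10 fell (20.8%), beside 18% and 17.2% of all genes. DENND3, an exchange factor for RAB12, had 8.44 ± 0.646 CPM with exosomes and 16.8 ± 2.22 CPM in control (log2 fold change -0.99, edgeR, adjusted p = 1.26e-05; trend-removed -1.12). RIN1, which activates RAB5, had 53.1 ± 5.40 CPM with exosomes and 29.8 ± 4.93 CPM in control (0.83; trend-removed 0.50). ST5, also named DENND2B, which activates RAB13, had 187 ± 2.29 CPM with exosomes and 128 ± 3.52 CPM in control (0.55, adjusted p = 3.63e-06; trend-removed 0.35). RAB3GAP2, part of the exchange factor for RAB18, was at -0.46, and at -0.08 trend-removed, where it did not pass.

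Of 33 genes listed as GAPs 4 rose (12.1%) and 10 fell (30.3%), beside 25.6% and 26.1% of all genes. With the trend removed, 1 rose (3.03%) and 8 fell (24.2%), beside 18% and 17.2% of all genes. Whether the protein of each listed gene turns a RAB off was not tested. TBC1D9 had 70.2 ± 1.88 CPM with exosomes and 103 ± 5.37 CPM in control (log2 fold change -0.55; trend-removed -0.41), and TBC1D23 had 79.7 ± 9.10 CPM with exosomes and 118 ± 2.07 CPM in control (-0.57; trend-removed -0.28). TBC1D10C (0.56) and SGSM2 (0.34) were called higher from the counts as deposited, and neither passed trend-removed.

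Of 43 genes listed as effectors 7 rose (16.3%) and 15 fell (34.9%), beside 25.6% and 26.1% of all genes. With the trend removed, 4 rose (9.3%) and 16 fell (37.2%), beside 18% and 17.2% of all genes. Whether each listed gene acts only as an effector was not tested. RAB11FIP1, which binds RAB11 on recycling endosomes, had 141 ± 5.84 CPM with exosomes and 265 ± 29.6 CPM in control. It had the smallest adjusted p of the lists (log2 fold change -0.92 ± 0.0837, edgeR, adjusted p = 2.99e-08; trend-removed -0.80, adjusted p = 1.04e-08). EEA1, the early endosome tether that RAB5 recruits, had 91.0 ± 12.3 CPM with exosomes and 151 ± 4.87 CPM in control (-0.74; trend-removed -0.20, adjusted p = 0.0158). EHBP1L1, an effector of RAB8, had 91.6 ± 12.6 CPM with exosomes and 54.9 ± 4.75 CPM in control (0.74; trend-removed 0.38). RABEP2, a RAB5 effector, was at 0.58, and at 0.04 trend-removed, where it did not pass.

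Of 4 kinases and phosphatases that act on RABs 2 fell (50%) and 0 rose, beside 26.1% and 25.6% of all genes. With the trend removed, 2 fell (50%) and 1 rose (25%), beside 17.2% and 18% of all genes. PPM1H, the phosphatase that reverses LRRK2's marks on RAB8A and RAB10, had 29.1 ± 0.955 CPM with exosomes and 42.4 ± 3.35 CPM in control (log2 fold change -0.55, edgeR, adjusted p = 0.000109; trend-removed -0.44). LRRK2 itself was near absent, at 0.148 CPM in exosome library 3 and 0 in every other library, and was not tested. TBK1, a kinase that can phosphorylate RAB7A, was at -0.32 (adjusted p = 0.0114), and at -0.08 trend-removed (adjusted p = 0.518).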

How the data were processed

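RNA was isolated with Trizol and libraries were built with a NEBNext Ultra kit, per the labels' protocols. The submitters' processing notes name STAR and GRCh38 (hg38); the counter, annotation and strand setting were not given in the sources used here. Per the file headers, the deposited table holds the authors' read counts per gene, their FPKM, a signal of counts divided by 1 size factor per library, log2 fold changes and p-values. Its positions run 1 base below GENCODE 29 (15490 of 15490 rows with an Ensembl ID) and are given counted from 1.

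All 12449 genes kept by filterByExpr were tested by edgeR 4.0.16 (R 4.3.3; TMM, robust quasi-likelihood fit, group as the only term) with Benjamini-Hochberg adjustment at 0.05. SEs are the absolute log2 fold change divided by the root of F. FPKM and signal entered no test. Libraries of a group differed by more than sampling noise (chi-square per gene 2.29 to 15.6).

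For the trend-removed fit, each library's log2 CPM minus the gene mean was smoothed (loess, span 0.3) on the GC content and log2 length of the longest GENCODE 29 transcript, and the curve was used as an offset. It was fitted in 2 shapes. A first, of degree 1, was replaced by R's default of degree 2, to follow earlier processing of these data, after the calls of the first had been seen; RAB24 and RAB40C pass with the first shape and not with the second. Scripts were tested on simulated data that held no GC or length trend. The removal of a trend that differs between groups was therefore not checked there.

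Alternatives were RLE factors, library totals, other filters, DESeq2 1.42.0, limma-voom (limma 3.58.1), a stricter threshold of 0.01, the replicate number as a block, and each library left out. Members, gene lists, roles and the naming rule were chosen with earlier results of these data known, RAB6D's role after the table was seen, and ratios, promoters and motifs after values were seen. The rule names called members with an absolute log2 fold change of at least 0.5, the 5 highest by FPKM, pairs called in opposite directions, RAB27A, RAB27B, RAB11A, RAB35, RAB7A, RAB31 and RAB5A, and per list the 2 genes called higher and 2 called lower with the smallest adjusted p; other members are named after their values were seen. 1 gene that the rule takes is not reported here.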

Additional observations from a re-analysis of the deposited data

How the results depend on the processing

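RLE factors, no filter, at least 1 CPM in 3 libraries, DESeq2, limma-voom and the replicate block each kept all 28 member calls. Library totals moved the median of all genes to a log2 fold change of 0.08 and ended RAB12, RAB2A and RAB5A. RAB27B, RAB6A and RAB32 kept their call in 22 of 22 alternatives, RAB10 and RAB30 in 20, RAB13 and RAB14 in 19 and RAB12 in 17.

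The GC and length offset changed most: 4 members higher and 7 lower (6 and 9 with the replicate block as well), 2144 of all genes lower in place of 3244, and 14 other pathway genes higher in place of 23. It turned RAB1B to -0.15 (-0.15 with the block, adjusted p = 0.0432), RAB34 to -0.11 (-0.11), RAB35 to -0.011 (-0.013) and RAB27A to 0.26 (0.26); RAB21 and RAB2A, called lower, also turned, to 0.19 and 0.06, and did not pass. Pairs called in opposite directions went to 1 with the offset, to 1 with block and offset and to 1 at an adjusted p under 0.01, where 15 other pathway genes were higher.

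Leaving out 1 library gave 1 to 3 such pairs and 14 to 24 pathway genes higher. The offset fit then gave 1 to 6 members higher and 4 to 8 lower, with RAB21 called higher without exosome library 3. RAB1B was called lower in it without exosome library 3 and without control library 3. The higher members of the offset fit numbered 1 without exosome library 1 or 2 and 2 without control library 1, and its lower members 4 without exosome library 2. These fits, and a local linear offset, were added after seeing the data. The local linear offset gave 6 members higher and 7 lower, adding RAB24 (adjusted p = 0.0490) and RAB40C (0.0480) to the calls; the degree 2 offset gave 0.05003 and 0.0548, so these 2 calls rest on the shape of the trend, which was chosen after the first was seen.

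Same-numbered libraries correlated at 0.0664, 0.103 and 0.206 in their deviations from group means. Not all exceed 0.1, so the numbers were not taken as pairs, although each exosome library correlated best with its own number. The cause of these changes was not tested. Depth limits RAB26, RAB13 and RAB20, each below 10 CPM, and the 12 members that were not tested. Depth also limits RAB3A, RAB3B, RAB36, RAB37, RAB40A, RAB40B, RAB42 and RAB43, below 10 CPM in every library and not called. Confidence intervals of the log2 fold change were wide, at -0.10 to 1.33 for RAB43, -0.40 to 1.11 for RAB3A and -0.41 to 0.40 for RAB40B. That these members did not pass therefore does not show that they were unchanged.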
